A study of Gallus gallus with 10 samples.

Results

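Neural plate SOX genes, ZEB2 and geminin were followed over 10 arrays of chick placode progenitors. The genes are SOX1, SOX2, SOX3, SOX11, SOX21, ZEB2 and GMNN, the gene of geminin, and every probe set that the platform annotation assigns to one of these 7 symbols was taken. The array holds 11 such probe sets, for 6 of the 7 genes, among 38535 probe sets in all, and no probe set carries the symbol SOX21. ZEB2 has 5 of the 11, SOX11 has 2, and SOX1, SOX2, SOX3 and GMNN have 1 each. A probe set is a group of short probes on the Affymetrix array that together measure transcripts of 1 gene.

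SOX1, SOX2 and SOX3 are closely related HMG box transcription factors that keep neural progenitors undifferentiated, and SOX2 and SOX3 are standard markers of the chick neural plate. SOX11 belongs to a separate SOX subgroup active in neural cells that begin to differentiate, and SOX21 counteracts the SOX1 to SOX3 group in neural progenitors. ZEB2, also called SIP1, is a zinc finger repressor that binds SMAD proteins and acts downstream of Churchill (CHURC1) in the chick neural plate, and it is also a known neural crest gene. Geminin holds back DNA replication by binding CDT1 and keeps early neural cells from differentiating, through the SWI/SNF ATPase SMARCA4. Placode progenitors lie in the ectoderm just outside the neural plate.

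The samples form 4 groups of chick embryo tissue, cut out by hand with insect pins, at stages given as HH5-7 for all samples and as HH6 in the titles of the uncultured ones. Cultured anterior placode progenitors (cultured aPPs, 2 arrays) and cultured posterior placode progenitors (cultured pPPs, 2 arrays) were embedded in collagen and held there for 5 hr, while anterior progenitors (aPPs, 3 arrays) and posterior progenitors (pPPs, 3 arrays) were processed without culture. There is no array of tissue that stayed in the embryo over these 5 hr, so that culture and added age cannot be told apart. The sources used here do not say how many embryos went into a sample or whether sets came from separate dissections, and p-values measure the spread between these arrays, which may be technical. In dissected tissue, fewer cells of a type and less RNA per cell cannot be told apart.

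Values are deposited MAS5 signals, a linear brightness in arbitrary units, quantile normalized here over the 10 arrays. The deposited array medians lay between 6.2 and 21.3. Log2 differences were taken after adding 16 to each signal, which makes the difference of a dim probe set smaller than the ratio of its signals. MAS5 also calls each probe set present, marginal or absent, and 44.7 to 49.0% of probe sets were called present on the 6 arrays whose call column could be matched to 1 sample. A further aPP array and pPP array have calls without a set number, which makes 8 arrays with calls. Signals of different probe sets are not on a common scale, so that levels of different genes were not compared. Marker signals were summed within each array, and bright probe sets weigh most in such a sum. A probe set was called changed when its Benjamini-Hochberg adjusted p in limma was under 0.05. All 7 preplacodal markers with a probe set had present calls, EYA2 and DLX5 on 8 of 8 arrays and EYA1 on only 3. Their summed signal came mostly from DLX5. It was 4202 to 4511 in cultured aPPs, 3768 to 3889 in cultured pPPs, 4407 to 5068 in aPPs and 3126 to 4258 in pPPs. The array labelled cultured pPP set 2 has signals that appear in the second deposited table under a heading for cultured aPP set 2, a name that 2 columns there share. The sample label was kept, and the differences of the genes and of the called genes on the lists below that use this array are also given without it. Counts, medians and shares over lists include it, and marker sums are ranges over arrays that include it. The differences of the markers OTX2, HESX1 and PAX6 in cultured pPPs include it too and are not given without it.

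Of the 11 probe sets, 7 were called present on 2 or more of 8 arrays and were tested, with 1 each for SOX1, SOX3, SOX11 and GMNN and 3 for ZEB2. The other 4 were too dim, namely the only SOX2 probe set (Gga.601.1.S1_at, present on 1 of 8 arrays), SOX11 Gga.3696.1.S2_at (present on 1), ZEB2 Gga.15292.1.S1_at (present on 1) and ZEB2 Gga.12195.1.S1_at (present on 0). Their normalized signals stayed between 0.12 and 16.1 on all 10 arrays. No difference was therefore tested for SOX2 or SOX21, and the low SOX2 signal describes this probe set and not the SOX2 transcript. SOX2 gave 2.83 and 1.12 in cultured aPPs, 0.38 and 1.55 in cultured pPPs, 0.53, 2.72 and 0.38 in aPPs, and 1.27, 4.81 and 5.83 in pPPs, with the array of pPP set 2, at 4.81, as its only present call.

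**Figure D1:**
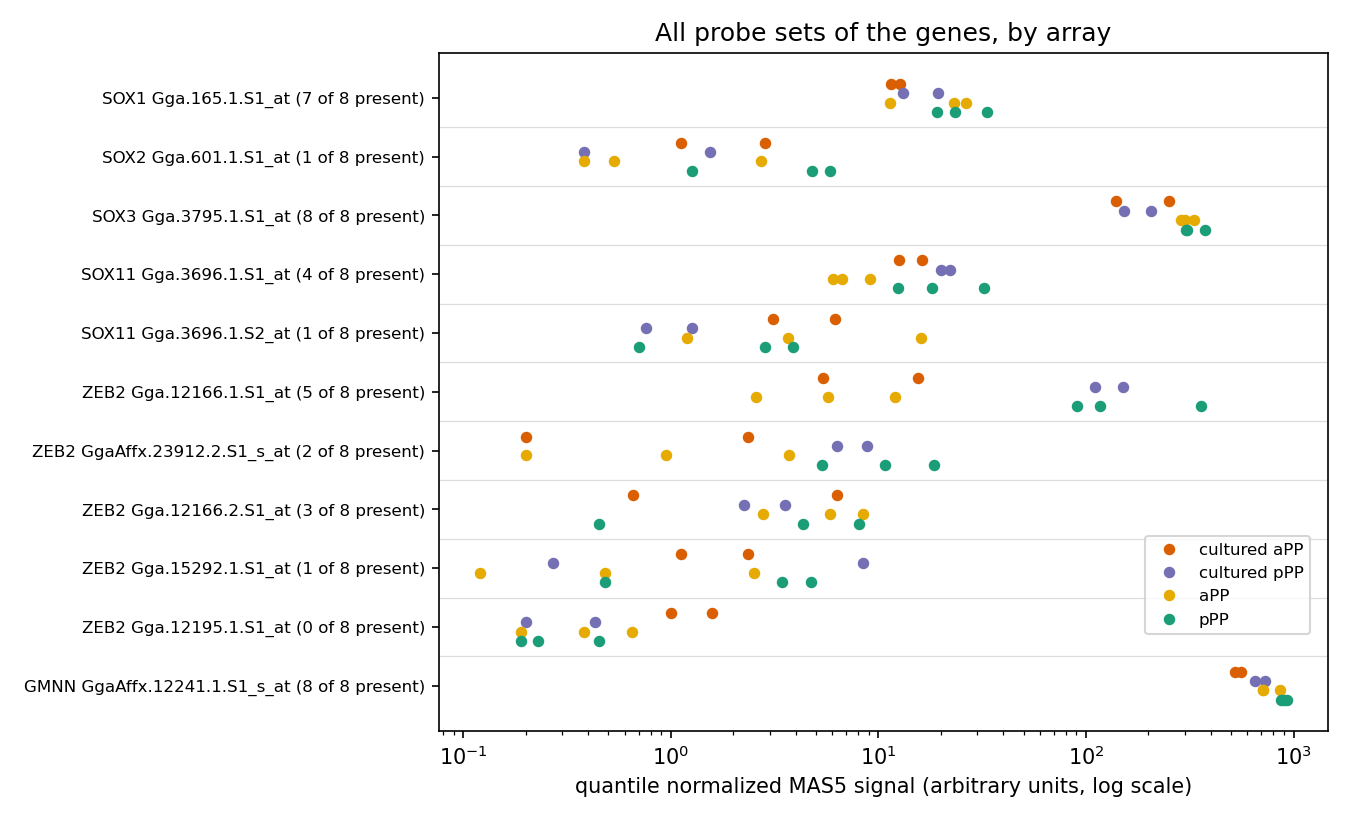
Normalized MAS5 signal (arbitrary units, log scale) of all 11 probe sets, with 1 point per array, coloured by group (cultured aPP, n = 2; cultured pPP, n = 2; aPP, n = 3; pPP, n = 3). Each label gives the present calls over 8 arrays. GMNN and SOX3 lie at 139 or above on every array, while only the ZEB2 probe set Gga.12166.1.S1_at separates the anterior from the posterior arrays by a wide gap, with 15.4 as its highest anterior and 90.1 as its lowest posterior value.

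Of the uncultured groups, aPPs had less ZEB2 signal than pPPs, and no other of the genes was called. The called ZEB2 probe set was 1 of the 7 probe sets tested, where 1.89% of all 21591 probe sets tested were called. The median log2 difference of the 7 was -0.24, against -0.02 over all probe sets tested, and 3 of the 7 had an unadjusted p under 0.05, as did 10.1% of all probe sets tested. For 4 of the 7 the arrays of aPPs and pPPs did not overlap, all lower in aPPs, and this was so for 13.9% of all probe sets. The 4 were those of SOX11 and GMNN and, both of ZEB2, Gga.12166.1.S1_at and GgaAffx.23912.2.S1_s_at, so not 4 separate genes. The same SOX11 and ZEB2 probe sets were the 3 with an unadjusted p under 0.05 in limma. GgaAffx.23912.2.S1_s_at was tested only through present calls in pPPs, where it was higher.

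The brightest ZEB2 probe set is Gga.12166.1.S1_at. Its normalized signal was 2.56, 5.74 and 11.95 in aPPs, against 116, 358 and 90.1 in pPPs. All 3 pPP arrays lay far above all 3 aPP arrays, and the pPP arrays differed among themselves more than the aPP arrays did. Mean signals were 6.75 ± 4.78 in aPPs and 188 ± 148 in pPPs (SD, n = 3 each). This probe set was called present on 0 of 3 aPP arrays and 3 of 3 pPP arrays. The log2 difference was -2.95 (SE 0.35, 95% interval -3.70 to -2.20, adjusted p 0.000240 in limma). With aPP signals raised to the lowest signal called present, the point estimate was 7.62-fold lower in aPPs. That fold is a lower bound only as to detection, since the 95% interval and the offset allow smaller folds. Ordered by p it was number 30 of the 21591 probe sets, and it stood at place 4 when all were ordered from the lowest log2 difference upwards. The aPP array was below the pPP array in each set, with log2 differences of -2.83 in set 1, -4.11 in set 2 and -1.92 in set 3.

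The other ZEB2 probe sets gave low signals. GgaAffx.23912.2.S1_s_at gave 3.72, 0.20 and 0.95 in aPPs, against 10.7, 18.5 and 5.34 in pPPs, again without overlap. Its log2 difference of -0.62 (SE 0.17, adjusted p 0.103 in limma) was not called, and it was called without pPP set 3 (adjusted p 0.0336). The third tested ZEB2 probe set, Gga.12166.2.S1_at, did not separate the regions, with 2.77, 5.83 and 8.45 in aPPs and 4.33, 0.45 and 8.09 in pPPs (log2 difference 0.10, 95% interval -0.27 to 0.47, adjusted p 0.954). The regional difference of ZEB2 therefore rests on 1 called probe set. GgaAffx.23912.2.S1_s_at ran in the same direction but was present on only 2 of 8 arrays, both of them pPP arrays. It entered the tests only through the group where it was higher, so that its direction is no separate support.

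Markers of neighbouring tissues also differed between the regions. The 9 neural crest markers, all with a present call, summed to 340 to 423 in aPPs and 523 to 569 in pPPs. TFAP2B, PAX7 and DRAXIN of these were called lower in aPPs, and the other 6 were not called. PAX7 was present on only 4 of 8 arrays, so that it may have been tested only through the group where it was higher. The summed signal of 8 nonneural ectoderm markers (1 with no present call) was 2398 to 2954 in aPPs and 462 to 1004 in pPPs. Of the 7 tested, EPAS1 (2.49), KRT7 (1.63) and GATA3 (1.39) were called higher in aPPs and 4 were not called. For 12 mesoderm markers (4 of them not tested) no common direction was seen, with a median log2 difference of -0.04 over the 8 tested. FOXC2 made up most of their sum, with 1201, 1035 and 1185 in aPPs against 435, 160 and 333 in pPPs. It was called higher in aPPs (1.93), while TBXT ran the other way and was called lower (-0.83), and the other 6 were not called. For 11 mesendoderm and endoderm markers (2 with no present call) the sum was 562 to 2209 in aPPs and 289 to 404 in pPPs, most of it from HHEX and SST1. Of the 7 tested, SOX17, HHEX and SST1 were called higher in aPPs and 4 were not called. Of 4 anterior ectoderm markers 0 were called, with a median log2 difference of -0.21, and PAX6 (0.87, adjusted p 0.156 in limma) was the 1 at an unadjusted p under 0.05. Of the 2 posterior ectoderm markers tested, GBX2 was called lower in aPPs (-0.99, adjusted p 0.0166). IRX1 ran the other way (0.59) and was not called. The part of all these markers in the ZEB2 difference was not tested.

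SOX11 had the next lowest p of the genes, at a low signal. Gga.3696.1.S1_at gave 9.15, 6.05 and 6.70 in aPPs, with no present call, against 18.1, 12.5 and 32.4 in pPPs, with 2 of 3 present. No aPP array reached the lowest pPP array. The log2 difference of -0.63 (SE 0.19, 95% interval -1.04 to -0.23) had an adjusted p of 0.132 in limma and was not called. The dimmer, untested SOX11 probe set Gga.3696.1.S2_at did not share this direction. It gave 1.20, 3.66 and 16.1 in aPPs, against 0.70, 2.85 and 3.87 in pPPs, with its only present call on aPP set 3. In culture it gave 3.12 and 6.20 in cultured aPPs, against 0.76 and 1.27 in cultured pPPs.

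GMNN was present on 8 of 8 arrays. The ending _s_at of its probe set, and of a ZEB2 set above, marks sets whose probes may match more than 1 transcript. GgaAffx.12241.1.S1_s_at gave 713, 714 and 861 in aPPs, against 875, 902 and 932 in pPPs. The groups did not overlap, but the highest aPP array lay just under the lowest pPP array. The log2 difference was -0.24 (SE 0.12, 95% interval -0.50 to 0.01, adjusted p 0.532 in limma).

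SOX3, present on every array with a call, overlapped between the regions. Gga.3795.1.S1_at gave 288, 333 and 299.9 in aPPs, against 306, 375 and 304 in pPPs. Its log2 difference of -0.09 had a 95% interval of -0.52 to 0.34 (adjusted p 0.969 in limma), which leaves room for a difference of either sign. SOX1 (Gga.165.1.S1_at) gave low signals, with 23.0, 11.4 and 26.3 in aPPs and 23.3, 33.2 and 19.2 in pPPs. Its groups overlapped too, with a log2 difference of -0.20 (95% interval -0.62 to 0.22, adjusted p 0.891).

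**Figure D2:**
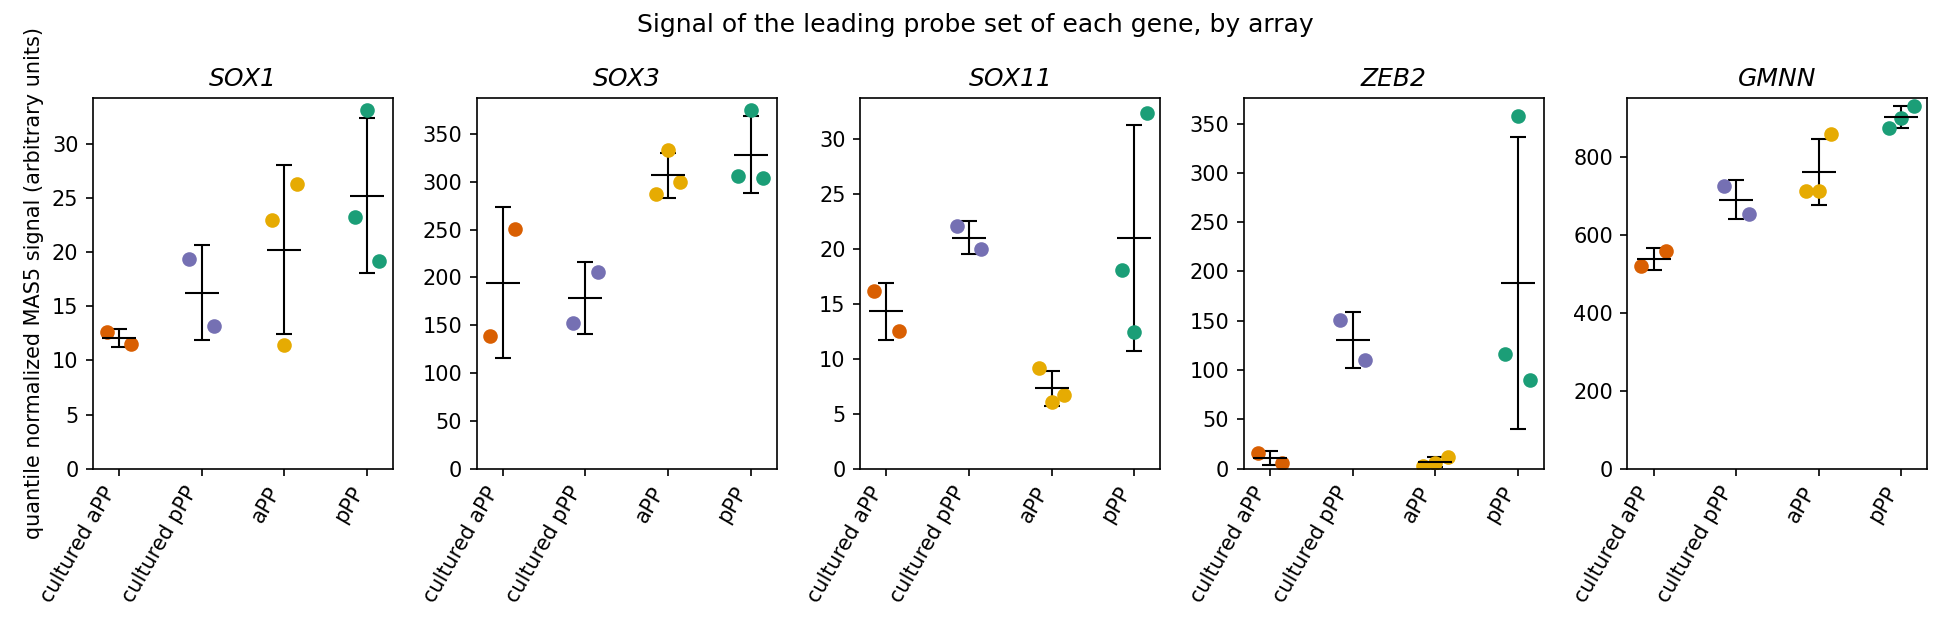
Normalized MAS5 signal (arbitrary units, linear axis from 0, a separate scale per panel) of the brightest tested probe set of each gene, with 1 point per array and the mean ± SD of each group as black bars (n = 2 for cultured groups, n = 3 for aPP and pPP). ZEB2 is at 15.4 or below on all 5 anterior arrays and at 90.1 or above on all 5 posterior arrays, while SOX3 and GMNN are lower in each cultured group than in its uncultured group.

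After 5 hr in collagen, ZEB2 was again lower in anterior explants. Comparing cultured aPPs with cultured pPPs asks whether a regional difference remains once the tissues are removed from the embryo. ZEB2 was the 1 of the 7 probe sets called, where 0.232% of all probe sets tested were called. It gave 15.4 and 5.39 in cultured aPPs, against 150 and 110 in cultured pPPs, with present calls on the 1 cultured aPP and the 1 cultured pPP array whose calls could be used. Both posterior explants lay well above both anterior explants. The log2 difference was -2.48 (SE 0.43, 95% interval -3.40 to -1.56, adjusted p 0.0243 in limma), or 5.59-fold lower in cultured aPPs. Without the array labelled cultured pPP set 2 it was -2.68 (adjusted p 0.0461). The call was lost without cultured aPP set 1 (adjusted p 0.110), without cultured aPP set 2 (0.448) and without cultured pPP set 1 (0.391), and the log2 difference stayed between -2.76 and -2.21. The other alternatives that ended the call were an offset of 64 (-1.38, adjusted p 0.0890), no normalization (0.0616), no filter (0.0690) and variances without an intensity trend (0.0677).

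Some neural crest markers also differed in this comparison. The summed signal of the 9 was 686 to 712 in cultured aPPs and 1255 to 1731 in cultured pPPs. Much of the sum in cultured pPPs came from TFAP2B (585 and 396) and DRAXIN (318 and 241). Of the 9, 6 were not called, while TFAP2B, PAX7 and DRAXIN were called lower in cultured aPPs. With the array labelled cultured pPP set 2 left out, their log2 differences were -2.79, -1.25 and -2.32, all still called. The PAX7 call was lost without either cultured aPP array or cultured pPP set 1 (adjusted p up to 0.166). The nonneural ectoderm sum was 2222 to 2315 in cultured aPPs and 1740 to 1896 in cultured pPPs, and the mesendoderm and endoderm sum was 522 to 675 in cultured aPPs and 266 to 311 in cultured pPPs. Of the 8 mesoderm markers tested 0 were called in limma. An unadjusted p under 0.05 was reached by 2 of the 8, where 9.1% of all probe sets reached it. The median log2 difference of the 8 was -0.13, against -0.007 over all probe sets tested. FOXC2 gave 1907 and 1708 in cultured aPPs and 746 and 1037 in cultured pPPs. The part of all these markers in the ZEB2 result was not tested.

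The remaining genes were not called between the cultured groups. Arrays did not overlap for 5 of the 7 probe sets, all lower in cultured aPPs, where 43.3% of all probe sets tested did not overlap. They include Gga.12166.1.S1_at and GgaAffx.23912.2.S1_s_at, both of ZEB2, so that they are not 5 separate genes. GMNN gave 520 and 559 in cultured aPPs, against 726 and 655 in cultured pPPs (log2 difference -0.35, SE 0.15, adjusted p 0.505 in limma). SOX11 gave 16.2 and 12.5 in cultured aPPs, against 22.1 and 20.0 in cultured pPPs (-0.29, adjusted p 0.741). Neither gap passed the adjustment over all probe sets. The 2 dimmer tested ZEB2 probe sets had no present call in either group. Gga.12166.2.S1_at overlapped, with 0.66 and 6.32 in cultured aPPs and 3.53 and 2.24 in cultured pPPs (0.03, adjusted p 0.976 in limma). Its difference is not given without the array labelled cultured pPP set 2. GgaAffx.23912.2.S1_s_at gave 2.34 and 0.20 in cultured aPPs and 6.33 and 8.83 in cultured pPPs (-0.45, adjusted p 0.556). SOX3 was mixed, at 139 and 250 in cultured aPPs and 152 and 205 in cultured pPPs (0.07, 95% interval -0.45 to 0.60), and SOX1 gave 12.6 and 11.5 in cultured aPPs and 19.4 and 13.2 in cultured pPPs (-0.20, 95% interval -0.71 to 0.32). Without the array labelled cultured pPP set 2 these differences were -0.42 for GMNN, -0.33 for SOX11, -0.37 for this ZEB2 probe set, 0.27 for SOX3 and -0.34 for SOX1, and none was called.

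**Figure D3:**
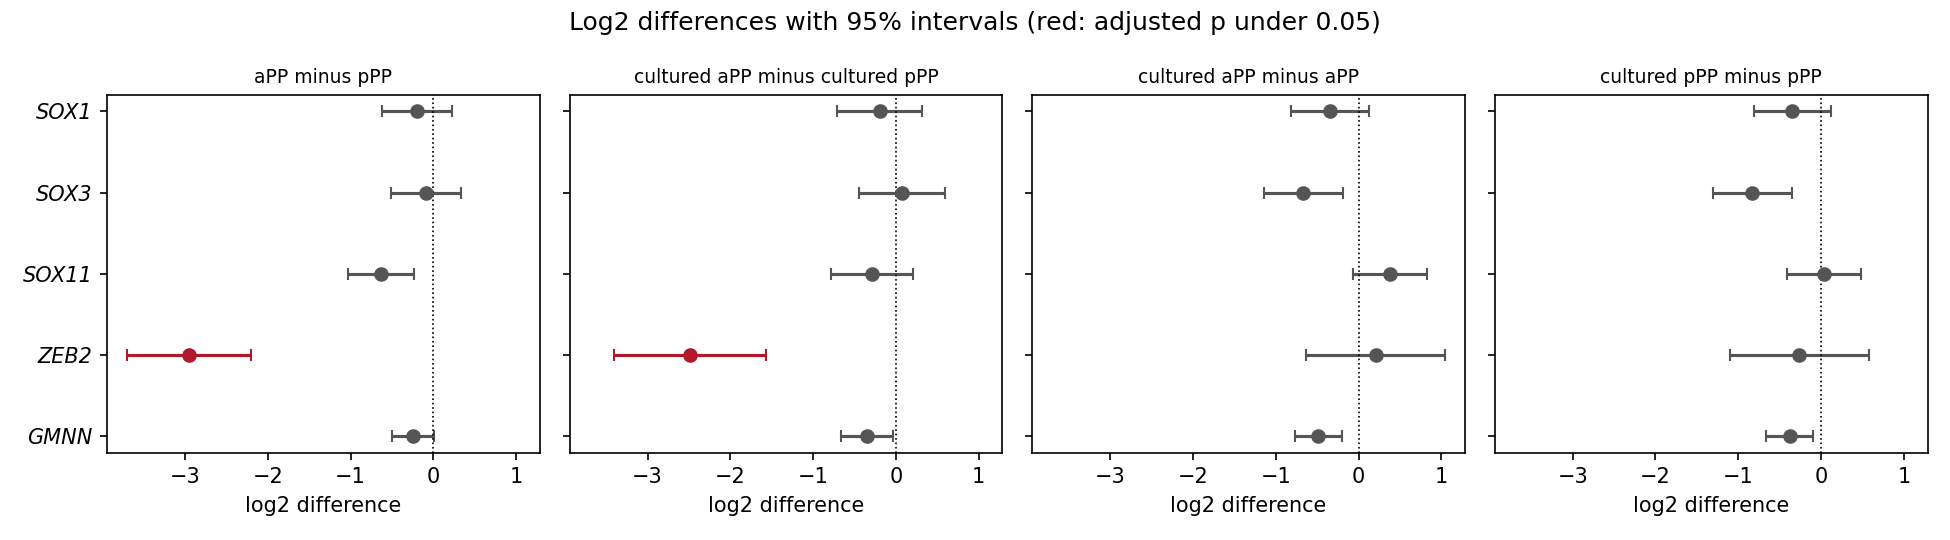
Log2 differences (x axis, log2 of signal + 16) with 95% intervals for the brightest tested probe set of 5 genes in 4 comparisons, from the limma model of 10 arrays, with adjusted p under 0.05 in red. ZEB2 is the only gene in red, at -2.95 for aPP minus pPP and -2.48 for cultured aPP minus cultured pPP.

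For culture, none of the 7 probe sets passed the threshold in either region. In cultured aPPs against aPPs 0 of 7 were called, where 3.7% of all probe sets tested were, and in cultured pPPs against pPPs 0 of 7, where 3.96% were. An unadjusted p under 0.05 was reached by 2 of the 7 in each of these comparisons, SOX3 and GMNN both times, where 16.7% of all probe sets reached it for aPPs and 18.1% for pPPs. Both were lower after culture in both regions, with no overlap between cultured and uncultured arrays. Such separation was common, at 36.1% of all probe sets for aPPs and 33.6% for pPPs. Neural crest markers summed to 686 to 712 in cultured aPPs against 340 to 423 in aPPs, and to 1255 to 1731 in cultured pPPs against 523 to 569 in pPPs. The nonneural ectoderm sum was lower in cultured aPPs, at 2222 to 2315 against 2398 to 2954 in aPPs, but its markers went both ways. Of the 7 tested, TFAP2C (1.18) was called higher and EPAS1 (-1.24) and BMP4 (-1.04) lower. The other 4 were not called, KRT7 (0.21) among them. EPAS1 gave 436 and 543 in cultured aPPs, against 942, 1524 and 1118 in aPPs. The nonneural ectoderm sum was higher in cultured pPPs, at 1740 to 1896 against 462 to 1004 in pPPs. There 2 of the 7 were called higher, 1 lower and 4 not. The sum of 4 anterior ectoderm markers was 1462 to 1596 in cultured aPPs against 1447 to 2113 in aPPs. In posterior tissue it was 785 to 1091 in cultured pPPs against 1920 to 2176 in pPPs. OTX2 (-1.06), HESX1 (-2.44) and SIX3 (-1.98) were lower in cultured pPPs than in pPPs and PAX6 (2.13) was higher. In cultured aPPs HESX1 (-1.63) was also called lower than in aPPs and PAX6 (2.30) higher, while OTX2 (-0.35) and SIX3 (0.11) were not called. The culture response was called different between the regions for 0 of these 4, where only 0.0139% of all probe sets were called. An unadjusted p under 0.05 in limma was reached by 3 of the 4, where 6.19% of all probe sets reached it. The median difference of the responses, pPPs minus aPPs, was -0.76 for the 4, against -0.0002 over all probe sets tested. The mesoderm sum, mostly FOXC2, was 1832 to 2190 in cultured aPPs against 1153 to 1391 in aPPs, and 946 to 1274 in cultured pPPs against 320 to 653 in pPPs. Of the 8 mesoderm markers tested, 0 were called in cultured aPPs against aPPs. In cultured pPPs against pPPs 1 was called higher and 0 lower. The mesendoderm and endoderm sum was 522 to 675 in cultured aPPs against 562 to 2209 in aPPs. It was 266 to 311 in cultured pPPs against 289 to 404 in pPPs. Of the 7 tested, 0 were called in limma in either region. An unadjusted p under 0.05 was reached by 4 of them in aPPs, with a median log2 difference of -0.70, and by 0 in pPPs, with a median of -0.008. The part of all these markers in the differences below was not tested.

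SOX3 had the larger log2 differences of these. It gave 152 and 205 in cultured pPPs, against 306, 375 and 304 in pPPs, a mean of 179 ± 37.7 (SD, n = 2) against 328 ± 40.2 (SD, n = 3). The log2 difference was -0.83 (SE 0.22, 95% interval -1.31 to -0.35, adjusted p 0.0514 in limma), just outside the threshold. Without the array labelled cultured pPP set 2 it was -1.03 (adjusted p 0.0478), without cultured aPP set 1 the adjusted p was 0.0369, and without cultured aPP set 2 it was 0.0386. With trimmed-mean scaling the adjusted p was 0.0420, and with an offset of 64 it was 0.0488. In anterior tissue SOX3 gave 139 and 250 in cultured aPPs, against 288, 333 and 299.9 in aPPs. The lower of these explants was cultured aPP set 1, whose column heading marks a second scan. The log2 difference was -0.67 (SE 0.22, 95% interval -1.14 to -0.19, adjusted p 0.128), and it was -0.28 without cultured aPP set 1 and -1.06 without cultured aPP set 2.

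GMNN had smaller differences, also not called. It gave 520 and 559 in cultured aPPs, against 713, 714 and 861 in aPPs, with a log2 difference of -0.48 (SE 0.13, adjusted p 0.0588 in limma). Without the array labelled cultured pPP set 2, which enters only through the shared variance and the adjustment, the adjusted p was 0.0495. In posterior tissue GMNN gave 726 and 655 in cultured pPPs, against 875, 902 and 932 in pPPs (-0.38, SE 0.13, adjusted p 0.135). It was -0.31 (adjusted p 0.304) when that array was left out.

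No difference of ZEB2 between cultured and uncultured tissue was called. In cultured aPPs, at 15.4 and 5.39, 1 array lay inside the span of the aPP arrays and 1 above it, with a log2 difference of 0.21 (95% interval -0.63 to 1.05, adjusted p 0.848 in limma). In cultured pPPs, at 150 and 110, both arrays lay inside the span of the pPP arrays (-0.26, 95% interval -1.10 to 0.58, adjusted p 0.786). Without the array labelled cultured pPP set 2 it was -0.06 (adjusted p 0.963). Ordered by mean signal, ZEB2 was highest in pPPs (188 ± 148, n = 3), then in cultured pPPs (130 ± 28.4, n = 2), cultured aPPs (10.4 ± 7.10, n = 2) and aPPs (6.75 ± 4.78, n = 3, SD in each case). The 2 posterior groups overlapped, as did the 2 anterior groups, and no posterior array overlapped any anterior array.

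SOX11 and SOX1 were not called in culture either. SOX11 gave 16.2 and 12.5 in cultured aPPs, both above the 3 aPP arrays (log2 difference 0.38, 95% interval -0.07 to 0.83, adjusted p 0.398 in limma). Gga.3696.1.S1_at, the probe set tested, had no present call in aPPs and was present on the 1 cultured aPP array with a call. In cultured pPPs the difference was 0.04 (95% interval -0.41 to 0.49), and its sign turned with trimmed-mean scaling (-0.09) and with no normalization (-0.19). SOX1 had a log2 difference of -0.34 in cultured aPPs against aPPs and -0.35 in cultured pPPs against pPPs (adjusted p 0.470 and 0.445), with overlapping arrays in both. The posterior differences were 0.08 for SOX11 and -0.21 for SOX1 when the array labelled cultured pPP set 2 was left out.

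None of the genes had a culture response that differed detectably between the regions. The response of pPPs minus that of aPPs was called for 0 of 7 probe sets, where 0.0139% of all probe sets were called in limma, and 0 of 7 had an unadjusted p under 0.05. For ZEB2 this difference was -0.47 (95% interval -1.66 to 0.71), and for SOX3 it was -0.16 (-0.84 to 0.51). They were -0.27 for ZEB2 and -0.36 for SOX3, not called, when the array labelled cultured pPP set 2 was left out. These intervals are wide, so that a moderate difference in either direction is not detectable with 10 arrays.

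Related genes from 4 lists were counted with 1 probe set per gene. Their counts stand beside 1.89% of all probe sets called for aPPs against pPPs, 3.7% for cultured aPPs against aPPs, 3.96% for cultured pPPs against pPPs and 0.232% between the cultured groups, and beside 10.1%, 16.7%, 18.1% and 9.1% at an unadjusted p under 0.05 in the same order. Of 14 other SOX genes 12 have a probe set and 6 were tested. An unadjusted p under 0.05 in limma was reached by 2 of the 6 in each of these comparisons but the last, where it was 0. Between aPPs and pPPs 1 of the 6 was called higher, the endoderm factor SOX17, which is also on the mesendoderm and endoderm list. SOX17 gave 98.6, 11.9 and 173 in aPPs, against 6.36, 1.14 and 0.48 in pPPs (log2 difference 2.19, adjusted p 0.0181 in limma). SOX17 was present on only 3 of 8 arrays, so that it may have been tested only through the group where it was higher. The arrays of aPP sets 1 and 3 carried most of its signal. The call was lost without aPP set 1 (adjusted p 0.0548), aPP set 3 (0.0856), pPP set 2 (0.0903) or pPP set 3 (0.0678). It was also lost with no filter (0.0580), no intensity trend (0.0521) and only the arrays compared (0.0599), and a filter of 4 of 8 arrays left SOX17 out. SOX8, a SOX factor of the neural crest and other tissues, was the 1 called in culture, higher by 0.98 in cultured aPPs (adjusted p 0.00872) and by 0.73 in cultured pPPs (adjusted p 0.0428). The first of these calls was lost without cultured aPP set 1 or 2 (adjusted p up to 0.120), and the second without any of 8 arrays, all but those of aPP sets 1 and 3 (up to 0.179). Leaving out the array labelled cultured pPP set 2 gave 0.58 for the second.

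The list of other neural plate and neural progenitor genes had 26 of 32 genes on the array and 21 tested. The homeobox gene NKX6-2 was the 1 called lower in aPPs than in pPPs (-1.09, adjusted p 0.0254 in limma), 0 were higher, and the median of the 21 was -0.12 against -0.02 over all probe sets. NKX6-2 was dim and present on 3 of 8 arrays, at 5.89, 6.73 and 0.95 in aPPs against 18.1, 51.5 and 19.3 in pPPs. Its call was lost with an offset of 1 (adjusted p 0.0833), no normalization (0.120), no filter (0.0810), no intensity trend (0.0519) and only the arrays compared (0.0625). In cultured aPPs 3 were higher than in aPPs and 0 lower, namely the Notch-responsive HES4 (1.25) and HES5 (1.03) and the intermediate filament gene NES (0.79). In cultured pPPs NES (0.85) and the proneural gene NEUROG2 (0.71) were higher than in pPPs, and the RNA-binding protein gene MSI1 (-0.91) was lower. Between the cultured groups 0 of 21 were called in limma, with 9 at an unadjusted p under 0.05. That p was reached by 7 of the 21 for aPPs against pPPs, 6 for cultured aPPs against aPPs and 10 for cultured pPPs against pPPs. Each of the calls named above was lost when some single array was left out. That of NKX6-2 was lost without aPP set 2, aPP set 3 or pPP set 2 (adjusted p up to 0.128), that of HES4 without cultured aPP set 1 or 2 (up to 0.168) and that of HES5 without aPP set 2 or cultured aPP set 2 (up to 0.388). NES lost its call in cultured aPPs without aPP set 2 or 3, pPP set 2 or either cultured aPP array (up to 0.360), and in cultured pPPs without pPP set 2 or 3 or cultured pPP set 1 (up to 0.335). MSI1 lost it without pPP set 1 or 2 or cultured pPP set 1 (up to 0.371), and NEUROG2 without any array but that of pPP set 1 (up to 0.180). Leaving out the array labelled cultured pPP set 2, the differences in cultured pPPs were 1.10 for NES, 0.60 for NEUROG2 and -1.38 for MSI1.

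Among partners and regulators of ZEB2 and geminin, 15 of 16 genes are on the array and 14 were tested. Between aPPs and pPPs 0 of the 14 were called in limma (3 at an unadjusted p under 0.05), and in cultured aPPs against aPPs also 0 (1 at an unadjusted p under 0.05). That p was reached by 2 of the 14 in cultured pPPs against pPPs and by 3 between the cultured groups. In cultured pPPs CDH1, which encodes E-cadherin and is repressed by ZEB2 in mammalian cells, was higher than in pPPs (0.74, adjusted p 0.00784), while SIX3, an anterior homeobox gene whose product binds geminin, was lower (-1.98, adjusted p 0.00122). CDH1 gave 2149 and 1691 in cultured pPPs, against 1396, 952 and 1092 in pPPs. SIX3 was also higher in cultured aPPs than in cultured pPPs (1.74, adjusted p 0.0312), with 127 and 187 in cultured aPPs against 40.5 and 30.1 in cultured pPPs. This second SIX3 call was lost without any 1 of the 4 cultured arrays (adjusted p up to 0.554), and the CDH1 call without cultured pPP set 1 (0.174), while the first SIX3 call stood whichever array was left out. Leaving out the array labelled cultured pPP set 2 gave 0.91 for CDH1, -1.84 for SIX3 in cultured pPPs against pPPs and 1.59 for SIX3 between the cultured groups.

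Replication licensing genes, the setting in which geminin is best known, had 14 of 17 on the array, all 14 tested. Between aPPs and pPPs 0 were called in limma, with 3 at an unadjusted p under 0.05, and between the cultured groups 0 were called, with 0 at an unadjusted p under 0.05. In cultured aPPs the cyclin gene CCNE1 was higher than in aPPs (1.09, adjusted p 0.0108) and 0 were lower, and the median was -0.12. An unadjusted p under 0.05 was reached by 5 of the 14 there, where 16.7% of all probe sets reached it. In cultured pPPs the helicase subunit genes MCM2 (-0.64, adjusted p 0.00681) and MCM3 (-0.75, adjusted p 0.0314) were lower than in pPPs and 0 were higher, and the median of the 14 was -0.38, against -0.01 over all probe sets. An unadjusted p under 0.05 was reached by 8 of the 14 in cultured pPPs against pPPs, where 18.1% of all probe sets reached it. GMNN itself had -0.38 in that comparison. The MCM2 call stood whichever array was left out. That of MCM3 was lost without pPP set 2 or 3 or any 1 of the 4 cultured arrays (adjusted p up to 0.222), and that of CCNE1 without cultured aPP set 1 or 2 (up to 0.167). Leaving out the array labelled cultured pPP set 2 gave -0.51 for MCM2 and -0.79 for MCM3.

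**Figure D4:**
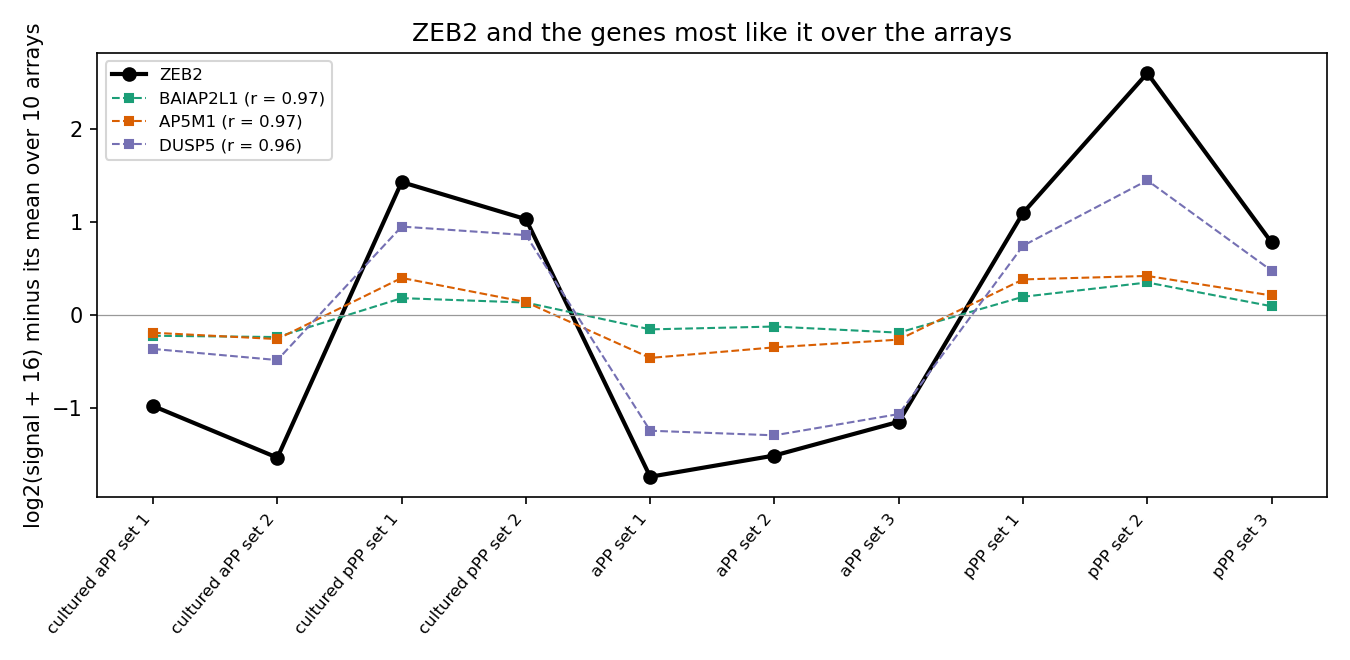
Log2(signal + 16) minus its mean over the 10 arrays (y axis) for ZEB2 (black, solid) and the 3 genes with the most similar pattern (dashed), by array (x axis). ZEB2 is below its mean on all 5 anterior arrays and above it on all 5 posterior arrays, and DUSP5 follows it over the widest range of the 3.

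The genes whose pattern over the 10 arrays was most like that of each gene were ranked by Pearson correlation of the log2 values, given as a description since the points share groups and sets. For ZEB2 they were BAIAP2L1 (r = 0.97), AP5M1 (r = 0.97) and DUSP5 (r = 0.96). DUSP5, a phosphatase that acts on ERK, gave 63.2 and 56.9 in cultured aPPs, 181 and 169 in cultured pPPs, 27.1, 25.6 and 32.8 in aPPs, and 155, 262 and 126 in pPPs. Like ZEB2 it was highest on the array of pPP set 2. For SOX11 they were RALGAPB (r = 0.91), PID1 (r = 0.91) and WDR77 (r = 0.90), for SOX3 they were RRM1 (r = 0.94), RUBCNL (r = 0.94) and PDHX (r = 0.92), and for GMNN they were ACSF2 (r = 0.98), PGK2 (r = 0.97) and GINS1 (r = 0.95). RRM1, a ribonucleotide reductase subunit gene, had 172 and 222 in cultured aPPs and 275, 245 and 237 in aPPs. GINS1, a gene of the replication helicase complex, had 177 and 179 in cultured aPPs and 290, 234 and 356 in aPPs. The ranking picked these as the highest correlations among all tested genes.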

How the data were processed

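Total RNA of 10 samples was measured on Affymetrix chicken arrays, 1 array per sample. The authors used an Absolutely RNA kit for extraction and the NuGEN Ovation system for amplification and labelling, and ran MAS5 for signals and detection calls, with a version not given in the sources used here. They deposited each signal as an intensity on a linear scale of arbitrary units, and per the file headers each detection call as present, marginal or absent. 2 call columns that share a name were left out, and 1 aPP and 1 pPP call column carries no set number and was used for its group. The number of arrays limits the precision.

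Here the signals were quantile normalized over the 10 arrays, 16 was added and log2 taken. Of 38439 probe sets other than array controls, the 21591 present on at least 2 of 8 arrays were tested with limma 3.58.1 in R 4.3.3, in 1 model of 4 group means with an intensity trend, and p-values were adjusted over all of them. Where a group had no present call its fold is a lower bound as to detection, with the dim group raised to the lowest signal called present. This bound does not cover the spread between arrays. Gene symbols came from the platform annotation, with 1 symbol for 27168 probe sets, several for 177 and none for 11094. All member probe sets are named. The brightest tested probe set stands for a gene, up to 4 called genes with the largest difference are named per list, and the 3 most correlated genes are named for SOX3, SOX11, ZEB2 and GMNN. The members, gene lists and marker lists were chosen with earlier results of these data known. Set numbers were read as a possible pairing of aPPs with pPPs, which the sources used here do not state. The departures of same-numbered aPP and pPP arrays from their group means correlated at 0.44, 0.18 and 0.23 in sets 1, 2 and 3. Those of cultured with uncultured arrays of a set correlated at -0.11 to 0.08. Arrays of different set numbers were not compared, and the reported fit holds no pairing.

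The alternatives were offsets of 1 and 64, no normalization, trimmed-mean scaling, no filter, a filter of 4 of 8 arrays, a replicate block by set number, variances without the intensity trend, only the arrays compared, and each array left out in turn. The procedure was tested on simulated data. Plots were made in Python 3.11.15 with matplotlib 3.10.9.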

Additional observations from a re-analysis of the deposited data

How the results depend on the processing

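The ZEB2 difference between aPPs and pPPs was called under every alternative run, with log2 differences between -4.53 (offset 1) and -1.69 (offset 64). For cultured aPPs against cultured pPPs the number of called probe sets among the 7 was 0 with offset 64, no normalization, no filter and no intensity trend, and 0 to 1 with 1 array left out, against 1. It was 1 to 2 with 1 array left out for aPPs against pPPs. For cultured aPPs against aPPs it was 0 to 1 with 1 array left out and 1 with the replicate block, against 0. For cultured pPPs against pPPs it was 0 to 1 with 1 array left out and 1 with offset 64, trimmed-mean scaling or the replicate block, against 0. With the replicate block SOX3 had an adjusted p of 0.0363 in cultured aPPs and 0.0132 in cultured pPPs, but the set number is not shown to pair cultured with uncultured arrays. It changed no other call of the genes, and ZEB2 kept adjusted p of 0.000517 without and 0.0311 with culture.

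Signs turned only for differences that were not called in either setting. SOX11 in cultured pPPs against pPPs became -0.186 with no normalization and -0.0874 with trimmed-mean scaling, and ran between -0.13 and 0.25 with 1 array left out. With 1 array left out, the third tested ZEB2 probe set ran between -0.0378 and 0.24 and SOX3 between -0.15 and 0.0057 for aPPs against pPPs and SOX3 between -0.32 and 0.46 for cultured aPPs against cultured pPPs. ZEB2 ran between -0.0682 and 0.49 in cultured aPPs against aPPs and between -0.62 and 0.29 in cultured pPPs against pPPs. The difference between culture responses ran between -0.83 and 0.0815 for ZEB2 and between -0.55 and 0.23 for SOX3. In all, 440 of 470 repeats over 25 differences kept their sign and their side of the threshold. Most of the 25 were not called in the reported fit, so that keeping their side meant staying not called. The ZEB2 call between the cultured groups was kept in 12 of 19 repeats. Of 416 repeats over 22 differences of the listed genes and neural crest markers, added after seeing the data, 307 kept their call, 109 lost it and none turned its sign. The cause of each change was not tested. A filter of 4 of 8 arrays left out the dimmer ZEB2 probe sets, and the fit of only the arrays compared is the reported fit for the difference of responses.

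Counts over all probe sets moved more. With no normalization 58, 34, 18 and 0 were called for aPP against pPP, cultured aPP against aPP, cultured pPP against pPP and the cultured groups, against 408, 799, 856 and 50, and the median log2 difference of all probe sets in the culture comparisons shifted to -0.19 and -0.20. With no filter the counts were 251, 508, 515 and 28. For the cultured groups offset 1 and no intensity trend each gave 31, the replicate block 83 and only the arrays compared 85. With 1 array left out, 183 was the lowest count for aPP against pPP, 146 for cultured aPP against aPP, 165 for cultured pPP against pPP, and the cultured groups had 8 to 137. The difference of responses gave 3, with 0 to 54 over the alternatives. Groups of 2 arrays and signals near the lower end of the array limit SOX1, SOX2, SOX11 and the dim ZEB2 probe sets.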
